A study of Homo sapiens with 6 samples.

Results

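The target genes of p53 were examined in RCC4, a line of human clear cell renal carcinoma that lacks functional VHL, as a list of 32 gene names, given by name with no threshold on measured values. Of these, 31 were matched to a gene of the count table, and 30 passed the filter on low counts, out of 60683 genes in the table and 15321 tested. One group held 3 samples of parental RCC4 cells, labelled wild type, and the other 3 samples of RCC4 ATF4 KO cells. No treatment, time or selection is given in the labels for either group, nor how the knockout was made or whether it is 1 clone. A difference between the groups may therefore be one between cell populations, and the loss of ATF4 and such a difference cannot be told apart. The labels also do not say whether the replicates were separate cultures, so p-values measure only how far these samples spread, and part of that may be technical.

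The p53 protein is a transcription factor that accumulates after DNA damage and other stress. It induces genes that halt the cell cycle, start apoptosis, repair DNA and adjust metabolism, and it also induces its own inhibitors, foremost the ubiquitin ligase MDM2. ATF4 is the bZIP effector of the integrated stress response, and a few p53 targets, among them PMAIP1, BBC3 and GADD45A, are known to be induced in that response as well. The comparison asks how p53 targets of each role differ between cells with and without ATF4.

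The samples held 41002611 to 46755358 counts. The ATF4 transcript itself had 10413, 11037 and 10219 counts in the parental and 8628, 10386 and 9895 in the knockout samples, so its level does not check the labels. Of the markers of clear cell renal carcinoma, CA9, NDUFA4L2, ANGPTL4, PAX8, VIM, KRT8 and KRT18 were all present, from 16.2 to 5293 CPM in any sample (CPM is a gene's count relative to its library size, scaled by TMM factors). The immune, endothelial and red cell markers PTPRC, CD3E, CD68, PECAM1, CDH5, VWF, HBB and ALAS2 had at most 10 counts in any sample.

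The p53 target genes moved both ways and by small amounts. Of the 30 tested, 7 were higher and 8 were lower in the knockout cells, and 15 did not pass the test (edgeR quasi-likelihood test, adjusted p below 0.05 over all tested genes). Among all tested genes 42% were called, with 21.2% higher and 20.8% lower, against 50% of the members called. Well expressed genes pass more often, and among the 9694 genes within the members' range of mean levels (7.66 to 740 CPM) 52.8% were called. The median log2 fold change (knockout over parental) was 0.01 for the members and 0.01 for all tested genes. The median absolute log2 fold change was 0.10 for the members and 0.16 for all tested genes. No member changed by 1.5-fold, the extremes being BTG1 at -0.50 and FDXR at 0.50 on the log2 scale. The groups did not overlap in 14 of the 30 members, against 49.6% of all tested genes. In bulk RNA a lower level in every cell and fewer cells with the transcript cannot be told apart.

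**Figure D1:**
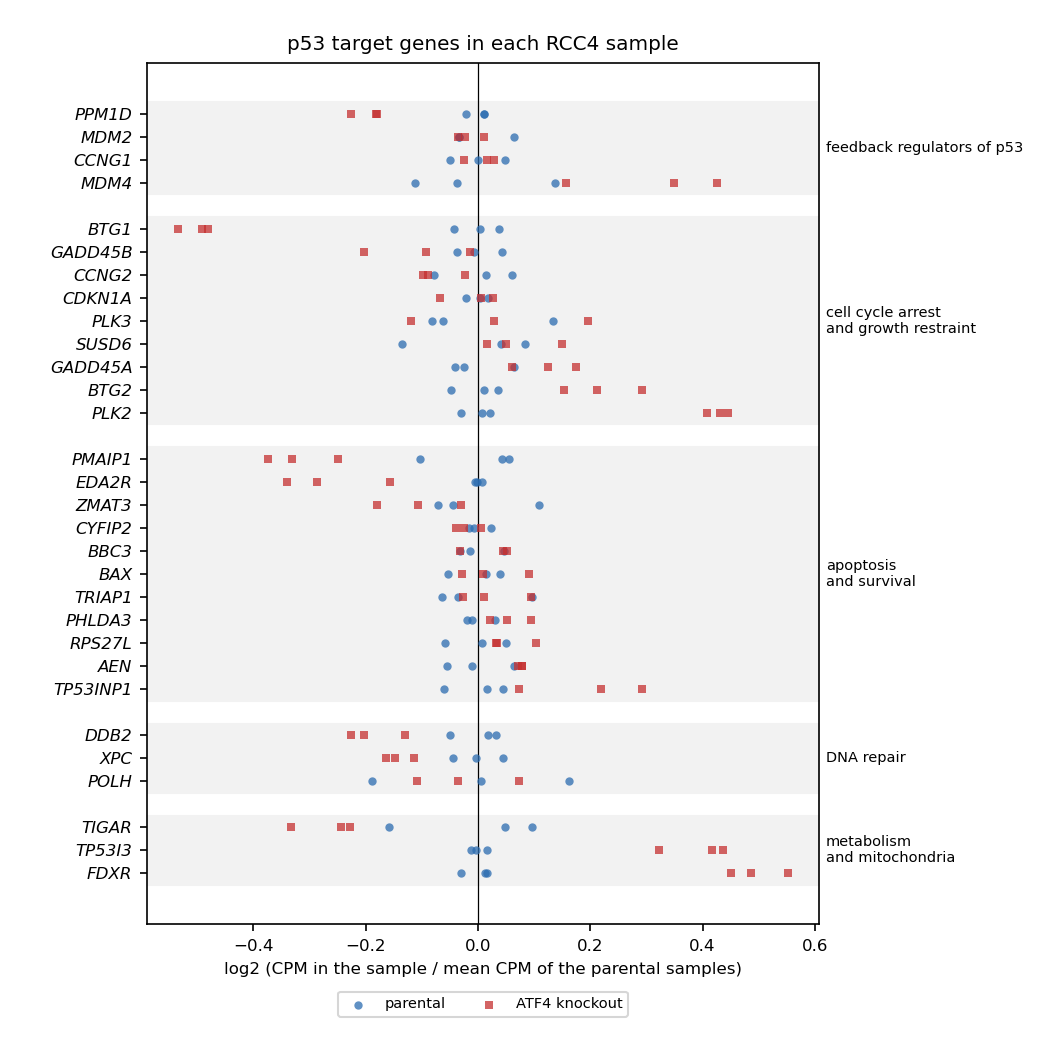
Level of each of the 30 tested p53 target genes in each sample, as log2 of its CPM over the mean CPM of the 3 parental samples (x axis), with blue circles for parental and red squares for ATF4 knockout samples, grouped by role. PLK2, FDXR and TP53I3 lie to the right in all 3 knockout samples and BTG1 to the left, while CDKN1A, BAX and MDM2 overlap between the groups.

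The mean level of the 30 members relative to each gene's own mean showed no separation of the groups. This score, in log2 CPM, was 0.002, -0.008 and -0.011 in parental samples 1 to 3, against -0.031, 0.015 and 0.033 in the 3 knockout samples. By role, the score of the metabolic members was higher in every knockout sample (0.13, 0.11 and 0.07, against -0.07, -0.15 and -0.09 in the parental samples). Of these members TIGAR went the other way, with a log2 fold change of -0.27 against 0.50 for FDXR and 0.39 for TP53I3. The score of the repair members was lower in every knockout sample (-0.10, -0.04 and -0.03, against 0.01, 0.13 and 0.03). Of the repair members, DDB2 at -0.19 lay near the median of the genes within 10 Mb of it (-0.21), and POLH was at -0.02. Each of these scores is a mean over only 3 tested genes. Single genes did not overlap between the groups in 49.6% of all tested, so neither score can be read as a shift particular to its role. The scores of the feedback, arrest and apoptosis members overlapped between the groups.

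Whole chromosomal regions differed between the groups, which touches some members. Beside each such member the median log2 fold change of the protein-coding genes within 10 Mb is given, and the value after an edgeR fit that removes this median. With the medians removed 7 members were higher and 7 were lower, against 17.6% and 18.6% of all tested genes. GADD45A, EDA2R, DDB2 and TIGAR were then no longer called, and CCNG2, TRIAP1 and ZMAT3 were called.

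**Figure D2:**
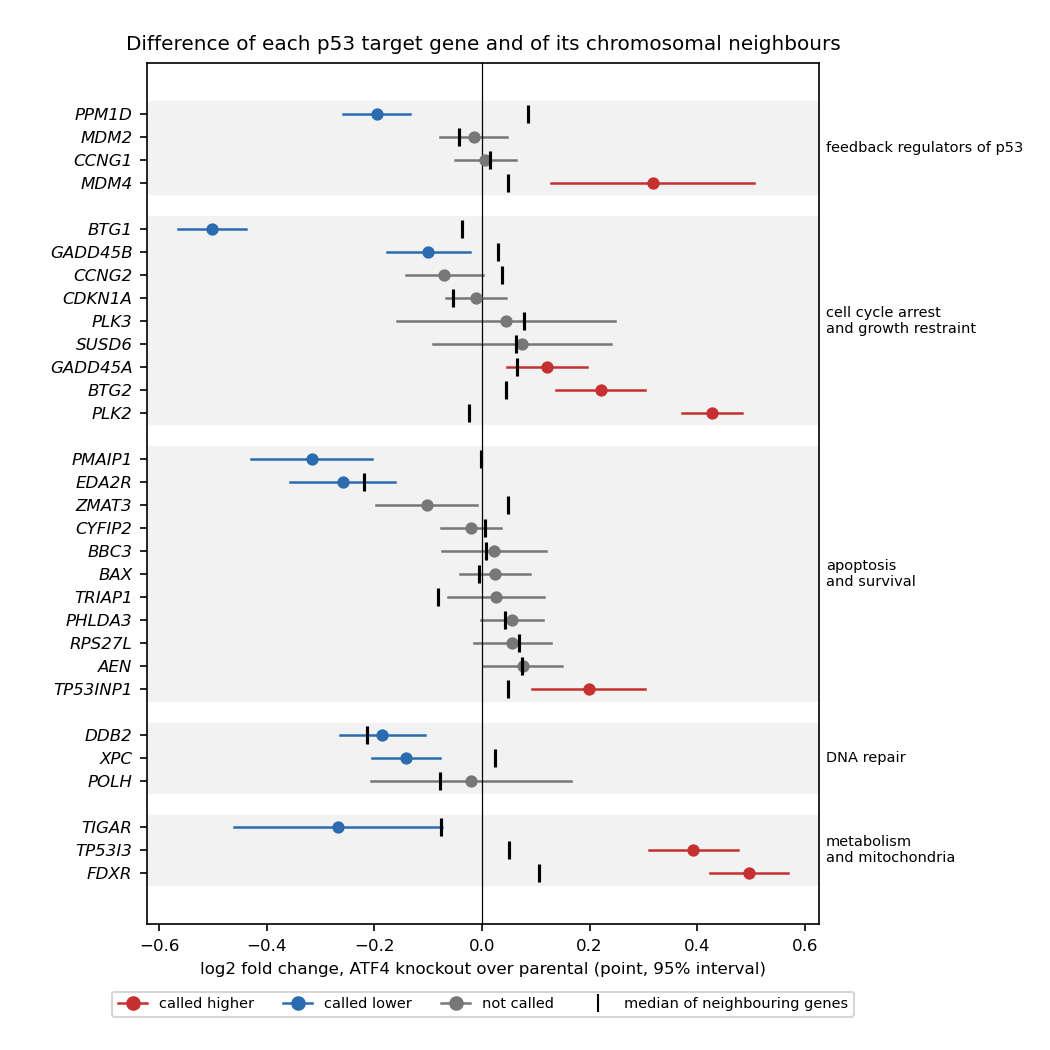
Difference between ATF4 knockout and parental cells (log2 fold change, n = 3 per group) for each tested p53 target gene with its 95% interval from the edgeR fit, red where called higher, blue where called lower and grey where not called. Black ticks mark the median of the protein-coding genes within 10 Mb, which lies at -0.21 beside DDB2 and at -0.22 beside EDA2R, close to these genes' own values of -0.19 and -0.26.

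The binding site of p53 is a pair of ten-base elements, each called here a p53 decamer. Promoter windows from 250 bases before to 50 bases after a transcript start (RefSeq, GRCh38.p14) were found for 28 of the 31 genes, as 37 windows, some of which overlap. GADD45A, PHLDA3 and TP53INP1 had no entry. An exact decamer, whose pattern reads alike on both strands, stood in 5 of the 37 windows (13.5%; DDB2, PLK2, FDXR, AEN and RPS27L) and in 6.63% of all 35116 windows. A pair of decamers at most 13 bases apart stood in 1 of the 37, that of DDB2, and in 10 of all windows. The sequence TGATGNAA on either strand, the core of the composite element bound by ATF4 with C/EBP proteins, stood in 1 of the 37 windows (2.70%), that of PLK3, and in 3.62% of all. These matches describe the letters in the windows and are not evidence of binding. Those of DDB2, PLK2, FDXR and AEN are printed on the gene's strand with the decamers in capitals, DDB2 by the rule for pairs and the others chosen after they were seen, to show the element in members that were lower, higher or not called.
DDB2, chr11:47214975-47215003, plus strand: gtttGAACAAGCCCtGGGCATGTTTggcg
PLK2, chr5:58460199-58460228, minus strand: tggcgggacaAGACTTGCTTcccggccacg
FDXR, chr17:74872986-74873015, minus strand: gggcaggagcGGGCTTGCCCtgcggagcag
AEN, chr15:88621296-88621325, plus strand: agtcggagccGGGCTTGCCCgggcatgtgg
In DDB2 the 2 decamers are 1 base apart. All 4 sites lie in untranslated exon sequence of at least 1 annotated transcript of their gene (GENCODE 29, GRCh38).

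Among the feedback regulators of p53, 1 of 4 was higher, 1 was lower and 2 did not pass the test. The share called was 50%, against 42% of all tested genes. MDM2 (ENSG00000135679, chromosome 12, 68808176 to 68850686), which targets p53 for degradation, lay at 143, 134 and 134 CPM in the parental samples and at 135, 134 and 138 CPM in the knockout samples. The groups overlapped, and the log2 fold change was -0.02 (95% interval -0.08 to 0.05, edgeR p_adj = 0.734). Its relative MDM4 (ENSG00000198625, chromosome 1), which binds and inhibits p53, had 381, 324 and 327 counts in the parental and 365, 472 and 506 in the knockout samples. These amount to 8.76, 7.37 and 7.76 against 8.87, 10.2 and 10.7 CPM, with knockout replicate 1 only just above the highest parental sample. MDM4 rose 1.25-fold (log2 fold change 0.32, SE 0.094, p_adj = 0.00475), and without knockout replicate 3 it was at 0.26 and no longer called (p_adj = 0.0507).

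PPM1D (ENSG00000170836, chromosome 17, 60600183 to 60666280), a phosphatase that removes activating phosphates from p53 and its kinases, lay at 129, 129 and 126 CPM in the parental samples and at 110, 113 and 113 CPM in the knockout samples. All knockout samples were below all parental ones. PPM1D fell 1.15-fold (log2 fold change -0.20, SE 0.031, p_adj = 6.20e-07), and by 0.28 with the regional median removed, since its neighbours were slightly higher (median 0.09). CCNG1 (ENSG00000113328), a cyclin that recruits phosphatase to MDM2, lay at 375, 388 and 362 CPM against 379, 369 and 383 CPM. The groups overlapped, with a log2 fold change of 0.01 (95% interval -0.05 to 0.06, p_adj = 0.884).

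Of the 9 genes of cell cycle arrest and growth restraint, 3 were higher, 2 were lower and 4 did not pass the test. The share called was 55.6%, against 42% of all tested genes. CDKN1A (ENSG00000124762, chromosome 6, 36676460 to 36687339) encodes p21, the cyclin-dependent kinase inhibitor through which p53 halts the cycle. It lay at 443, 455 and 451 CPM in the parental samples and at 429, 458 and 451 CPM in the knockout samples. The knockout samples spanned the parental range, and the log2 fold change was -0.01 (95% interval -0.07 to 0.05, p_adj = 0.788). With a parental mean of 148 CPM per kb of exon CDKN1A had the highest level per length of the members, ahead of PLK2 at 132 and CCNG1 at 121, while PLK2 led in the knockout cells at 178 against 146 for CDKN1A.

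Genes that are repressed through p21 and the DREAM complex were higher in the same cells in which CDKN1A was not called. All 24 of these cell cycle genes were called higher, against 21.2% of all tested genes. They had a median log2 fold change of 0.76 and a range from 0.38 to 0.94. Their mean score in the parental cells was -0.47, -0.45 and -0.17, against 0.40, 0.36 and 0.32 in the knockout cells. Parental replicate 3 lay closest to the knockout samples. The 4 with the smallest p-values were AURKB, CCNB2, TYMS and E2F1, at 0.70, 0.84, 0.59 and 0.73. The part of cell cycle activity in the values of the p53 targets was not tested.

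PLK2 (ENSG00000145632, chromosome 5, 58453982 to 58460260), a polo-like kinase induced by p53, lay at 618, 641 and 634 CPM in the parental samples and at 837, 851 and 859 CPM in the knockout samples. The groups were far apart relative to their spread. PLK2 rose 1.35-fold (log2 fold change 0.43, SE 0.028, p_adj = 2.55e-19) and was at 0.45 with the regional median removed. Its paralog PLK3 (ENSG00000173846) lay at 7.13, 7.23 and 8.29 CPM against 6.95, 7.70 and 8.65 CPM, with overlapping groups and a log2 fold change of 0.04 (95% interval -0.16 to 0.25).

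The antiproliferative paralogs BTG1 and BTG2 went opposite ways. BTG1 (ENSG00000133639, chromosome 12, 92140278 to 92145897) lay at 146, 150 and 142 CPM in the parental samples and at 101, 104 and 105 CPM in the knockout samples. It fell 1.42-fold (log2 fold change -0.50, SE 0.032, p_adj = 1.02e-19). BTG2 (ENSG00000159388, chromosome 1, 203305491 to 203309602) lay at 55.0, 58.3 and 57.3 CPM against 63.2, 65.9 and 69.6 CPM. It rose 1.17-fold (log2 fold change 0.22, SE 0.041, p_adj = 1.24e-05). Neither pair of groups overlapped, and with the regional medians removed BTG1 was at -0.47 and BTG2 at 0.18. A noncoding gene on the same strand, LINC01619, overlaps 10.4% of the exon bases of BTG1.

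The stress sensors GADD45A and GADD45B also differed in direction, with weaker calls. GADD45A (ENSG00000116717, chromosome 1) lay at 76.1, 76.9 and 81.8 CPM in the parental samples and at 81.7, 88.3 and 85.3 CPM in the knockout samples. The highest parental sample just overlapped the lowest knockout sample, and GADD45A was called higher (log2 fold change 0.12, SE 0.037, p_adj = 0.00628). It was not called without parental replicate 1 or knockout replicate 2 (p_adj = 0.0580 and 0.0743) or with the regional median of 0.06 removed (p_adj = 0.242). GADD45B (ENSG00000099860, chromosome 19) lay at 91.3, 88.3 and 86.5 CPM against 77.1, 87.8 and 83.3 CPM, with knockout replicate 1 the lowest. It was called lower (log2 fold change -0.10, SE 0.038, p_adj = 0.0314), but not without parental replicate 1, parental replicate 2 or knockout replicate 1 (p_adj = 0.169, 0.0589 and 0.270), with scaling by total counts (p_adj = 0.136) or by DESeq2 (p_adj = 0.0686).

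The other arrest genes were not called. CCNG2 (ENSG00000138764), a cyclin found in resting cells, lay at 102, 98.5 and 92.4 CPM against 91.7, 91.2 and 96.0 CPM (log2 fold change -0.07, 95% interval -0.14 to 0.001). It was called lower without parental replicate 3 (-0.11, p_adj = 0.0186), without knockout replicate 3 (-0.10, p_adj = 0.0487) and with the regional median removed (-0.11, p_adj = 0.0132). SUSD6 (ENSG00000100647) had a log2 fold change of 0.07 (95% interval -0.09 to 0.24).

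Of the 11 genes of apoptosis and survival, 1 was higher, 2 were lower and 8 did not pass the test. The share called was 27.3%, against 42% of all tested genes. The pore-forming protein BAX and the BH3-only proteins BBC3 (PUMA) and PMAIP1 (NOXA) act at the mitochondrial membrane. BAX (ENSG00000087088) lay at 142, 145 and 136 CPM in the parental samples and at 138, 150 and 142 CPM in the knockout samples, with a log2 fold change of 0.02 (95% interval -0.04 to 0.09). BBC3 (ENSG00000105327) lay at 37.5, 39.6 and 37.9 CPM against 37.5, 39.5 and 39.8 CPM, with a log2 fold change of 0.02 (95% interval -0.07 to 0.12). Both overlapped between the groups. PMAIP1 (ENSG00000141682, chromosome 18, 59899948 to 59904306) lay at 32.1, 28.8 and 31.8 CPM in the parental samples and at 24.6, 23.8 and 26.0 CPM in the knockout samples. All knockout samples were below all parental samples. PMAIP1 fell 1.25-fold (log2 fold change -0.32, SE 0.056, p_adj = 4.76e-06), and its neighbours had a median of -0.001.

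EDA2R (ENSG00000131080, chromosome X, 66595637 to 66639298), a receptor of the tumour necrosis factor receptor family, lay at 44.1, 44.3 and 43.9 CPM in the parental samples and at 34.8, 36.1 and 39.6 CPM in the knockout samples. It was called lower (log2 fold change -0.26, SE 0.049, p_adj = 1.47e-05). The genes around it had a median of -0.22, and with this removed EDA2R was at -0.04 and not called (p_adj = 0.563). TP53INP1 (ENSG00000164938, chromosome 8), a nuclear protein that promotes p53 activity and autophagy, lay at 34.8, 34.1 and 32.3 CPM against 35.5, 39.2 and 41.3 CPM. Knockout replicate 1 lay just above the highest parental sample. TP53INP1 rose 1.15-fold (log2 fold change 0.20, SE 0.052, p_adj = 0.00148) and was at 0.15 with the regional median removed.

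The remaining 6 members of this role had log2 fold changes between -0.10 and 0.08. They were the nuclease AEN at 0.08, PHLDA3, which restrains AKT, at 0.06, the ribosomal protein paralog RPS27L at 0.06, the apoptosis inhibitor TRIAP1 at 0.03, the actin regulator CYFIP2 at -0.02 and the RNA-binding protein ZMAT3 at -0.10. AEN lay at 76.4, 74.1 and 80.4 CPM against 80.9, 81.2 and 81.2 CPM, so its groups did not overlap although it was not called (p_adj = 0.0904). It was called without parental replicate 3 (0.11, p_adj = 0.0253) and with scaling by total counts (0.10, p_adj = 0.0208), and PHLDA3 was also called with that scaling (0.08, p_adj = 0.0168). ZMAT3 was called lower without parental replicate 2 (-0.14), parental replicate 3 (-0.12) or knockout replicate 3 (-0.14) with the strict filter (-0.11) and with the regional median removed (-0.15), and TRIAP1 was called higher with the regional median removed (0.11, p_adj = 0.0488). Another gene on the same strand overlaps 19.1% of the exon bases of PHLDA3.

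Of the 3 DNA repair genes, 2 were lower and 1 did not pass the test. The share called was 66.7%, over only 3 genes, against 42% of all tested genes. XPC and DDB2 recognise ultraviolet lesions in nucleotide excision repair. XPC (ENSG00000154767, chromosome 3, 14145147 to 14178783) lay at 135, 139 and 131 CPM in the parental samples and at 121, 122 and 125 CPM in the knockout samples. It fell 1.10-fold (log2 fold change -0.14, SE 0.031, p_adj = 0.000189) and was at -0.17 with the regional median removed. Genes on the opposite strand, among them LSM3, overlap 30.4% of its exon bases, and the strand setting of the counting is not given in the sources used here.

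DDB2 (ENSG00000134574, chromosome 11, 47214465 to 47239240), whose window held the pair of decamers, lay at 72.1, 71.3 and 68.1 CPM against 61.3, 64.5 and 60.3 CPM. The groups did not overlap, and DDB2 was called lower (log2 fold change -0.19, SE 0.039, p_adj = 9.96e-05). The genes around it had a median of -0.21, and with this removed DDB2 was at 0.03 and not called (p_adj = 0.626). POLH (ENSG00000170734), the polymerase that copies past ultraviolet lesions, lay at 36.7, 46.8 and 42.0 CPM against 38.8, 40.9 and 44.0 CPM. The parental samples spanned the knockout samples, and the log2 fold change was -0.02 (95% interval -0.21 to 0.17).

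Among the metabolic and mitochondrial genes, 2 of 3 tested were higher and 1 was lower. The share called was 100%, over only 3 genes, against 42% of all tested genes. FDXR (ENSG00000161513, chromosome 17, 74862497 to 74873031), the mitochondrial reductase that passes electrons to ferredoxin, lay at 69.0, 69.2 and 67.0 CPM in the parental samples and at 95.7, 100 and 93.4 CPM in the knockout samples. FDXR rose 1.41-fold (log2 fold change 0.50, SE 0.036, p_adj = 3.32e-17) and was at 0.39 with the regional median of 0.11 removed. TP53I3 (ENSG00000115129, chromosome 2, 24077433 to 24085861), a quinone oxidoreductase, lay at 49.4, 49.7 and 50.4 CPM against 67.5, 66.6 and 62.3 CPM. TP53I3 rose 1.31-fold (log2 fold change 0.39, SE 0.041, p_adj = 1.27e-11). In both genes every knockout sample was above every parental sample.

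TIGAR (ENSG00000078237, chromosome 12, 4307763 to 4354593), a phosphatase that lowers glycolytic flux, had 413, 350 and 387 counts in the parental and 312, 328 and 355 in the knockout samples. These amount to 9.50, 7.96 and 9.19 against 7.59, 7.06 and 7.51 CPM, with the groups not overlapping. It was called lower (log2 fold change -0.27, SE 0.096, p_adj = 0.0210). It was not called without parental replicate 1, parental replicate 3 or knockout replicate 2 (p_adj = 0.116, 0.0631 and 0.0899), by DESeq2 (p_adj = 0.0607) or with the regional median removed (p_adj = 0.119). A gene annotated on the same strand, ENSG00000285901, overlaps 42.6% of the exon bases of TIGAR, so its count is uncertain. SPATA18 (ENSG00000163071), a factor of mitochondrial quality control, was not tested, with 0, 0 and 2 counts in the parental and 0 in each knockout sample. With 3 counts as the limit that a count of 0 allows, the level could be up to 0.0634 to 0.0729 CPM by library, for counting error alone. The noncoding TNFRSF10D-DT was not matched to a gene of the table and has no value here.

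Several members are paralogs of each other, so the shift of one against the other can be read within each sample. The log2 ratio of BTG1 to BTG2, both per kb of exon, was 0.60, 0.55 and 0.49 in the parental cells, against -0.14, -0.16 and -0.23 in the knockout cells. The sign of this ratio rests on the annotated exon lengths, since in CPM BTG1 was above BTG2 in every sample. The ratio of GADD45A to GADD45B was -0.22, -0.15 and -0.03 against 0.13, 0.06 and 0.08. The ratio of MDM2 to MDM4 was 3.76, 3.91 and 3.84 against 3.65, 3.45 and 3.42. The groups did not overlap in these 3 pairs, nor for PLK2 with PLK3 and CCNG1 with CCNG2, whose mean ratios were higher in the knockout samples by 0.39 and 0.08. Single genes did not overlap in 49.6% of all tested, and the share among ratios of other gene pairs was not computed, so nothing particular to these paralogs can be read from the count of pairs. They overlapped for RPS27L with RPS27 (difference 0.05, exact permutation p = 0.5). An exact permutation test of 3 against 3 samples, two-sided, cannot go below 0.1, which is the p of each of the 5 other pairs (0.12 adjusted over the 6 pairs).

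Genes that act upstream in the p53 pathway also moved both ways. Of the 21 tested, 7 were higher, 6 were lower and 8 did not pass the test. The shares were 33.3% higher and 28.6% lower, against 21.2% and 20.8% of all tested genes. In either direction 61.9% were called, beside 52.8% of the genes within the level range of the p53 target genes (7.66 to 740 CPM). A share matched to the levels of this list was not computed, so no excess of calls can be read from it. The p53-binding repair scaffold TP53BP1 rose 1.32-fold from 59.7 ± 2.51 to 78.6 ± 2.33 CPM (SD, n = 3 each; log2 fold change 0.40), and the p53 inhibitor PPP1R13L rose 1.15-fold. TP53BP2 and the kinase HIPK2 rose by 0.12 and 0.13 on the log2 scale, TP53BP2 not being called with the regional median removed. The acetyltransferase EP300 on chromosome 22 was at -0.23, or 0.05 and not called with the regional median removed. The damage kinase ATM was at -0.22 (-0.11 with the median removed) and the kinase TP53RK at -0.24, not called with the median removed. TP63, TP73 and CDKN2A were not tested, with at most 1 count in any sample.

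A further list of 56 genes known to be induced by p53 also moved both ways. Of the 50 tested, 14 were higher, 13 were lower and 23 did not pass the test, with a median log2 fold change of -0.002. In this list 28% were higher and 26% lower, against 21.2% and 20.8% of all tested genes. Called in either direction were 54%, beside 52.8% of the genes between 7.66 and 740 CPM, and a share matched to this list's levels was not computed. SFN (ENSG00000175793, chromosome 1), the 14-3-3 protein that holds cells before mitosis, stood far from the rest at 1.10, 1.21 and 0.997 CPM in the parental samples, against 6.52, 6.17 and 6.64 CPM in the knockout samples. It rose 5.83-fold (log2 fold change 2.54, SE 0.15, p_adj = 7.75e-21). CMBL and the growth factor KITLG rose 1.52-fold and 1.53-fold and the receptor kinase EPHA2 rose 1.14-fold. CMBL, on chromosome 5, was at 0.24 in place of 0.61 on the log2 scale with the regional median removed.

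On the lower side of that list IER5 fell 1.55-fold from 35.7 ± 1.40 to 22.98 ± 1.23 CPM (SD, n = 3 each), the interferon-inducible TRIM22 fell 2.00-fold and the NAD synthetase NADSYN1 fell 1.24-fold. The semaphorin receptor PLXNB2 on chromosome 22 was at -0.29, or -0.02 and not called with the regional median removed. PRDM1, HES2, PADI4, PGF and TP53AIP1 were not tested, with at most 13 counts in any sample.

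**Figure D3:**
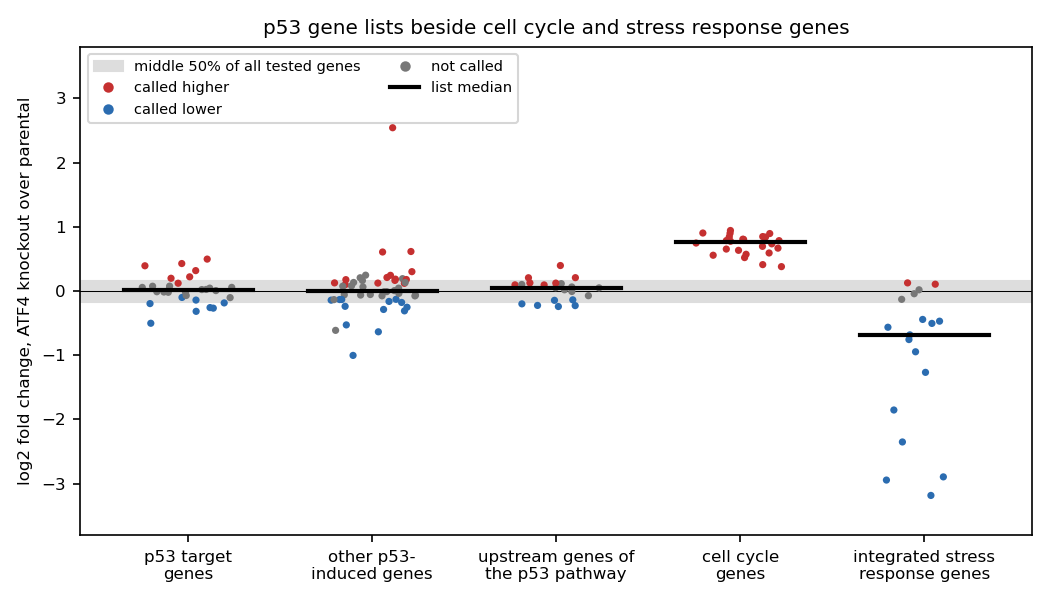
Difference between ATF4 knockout and parental cells (log2 fold change, n = 3 per group) for the tested genes of 5 lists, with black bars at the list medians, red, blue and grey points for genes called higher, lower or not called, and a grey band for the middle 50% of all tested genes (-0.17 to 0.16). The medians of the 3 p53 lists lie between -0.002 and 0.05, beside 0.76 for the cell cycle and -0.68 for the stress response genes; 1 gene, ADM2, lies beyond the axis.

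The integrated stress response genes gave the contrast within the same samples. Of 19 tested genes induced by ATF4 or CHOP, 14 were lower, 2 were higher and 3 did not pass the test, with a median log2 fold change of -0.68. The share called lower was 73.7%, against 20.8% of all tested genes. SLC7A5, NUPR1, SLC3A2 and TRIB3 were at -1.85, -3.18, -1.27 and -0.68. The 2 higher genes were VLDLR and SESN2, at 0.11 and 0.13, and neither was called with the regional median removed. SESN2, which restrains mTORC1, is also a p53 target, as is the stress cytokine GDF15, at 655 ± 25.9 CPM in the parental and 454 ± 36.1 CPM in the knockout cells (SD, n = 3 each), a 1.44-fold fall (edgeR p_adj = 0.000818). Of the members named at the outset as also induced in the integrated stress response, PMAIP1 was lower, BBC3 was not called and GADD45A was higher. The groups overlapped for GADD45A, and it was not called with the regional median removed.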

How the data were processed

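RNA sequencing libraries of 3 parental and 3 ATF4 knockout RCC4 samples were made with a stranded kit for mRNA, as the labels state. The deposited file holds raw counts of reads per Ensembl gene. The submitters' processing notes name bcl2fastq 2.20, cutadapt, STAR, HTSeq and the build GRCh38, while the sources used here do not give other versions, the annotation release or the strand setting. In its default mode HTSeq drops a read that matches several genes, which affects overlapping genes and paralogs.

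Symbols were matched for 60370 of 60683 identifiers from a table of gene names and for a further 289 from GENCODE 29, which also gave coordinates and exon lengths (GRCh38, possibly another release than that used for counting). Genes were kept by filterByExpr, scaled by TMM factors and compared with the edgeR (4.0.16, R 4.3.3) quasi-likelihood F test with robust dispersion and no replicate term. P-values were adjusted by the Benjamini-Hochberg method over 15321 genes, and SE was taken from the F statistic. The neighbour median used at least 10 genes within 10 Mb. Scores used log2 CPM with a prior count of 2. The steps were tested on simulated data.

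Alternatives were other size factors, total-count scaling, DESeq2 (1.42.0), limma-voom (3.58.1), no filter, a filter at a mean of 5 CPM, non-robust dispersion, a replicate block, the neighbour median and leaving out each sample. No 2 samples were identical. The members, roles and lists were chosen with earlier results of these data known. All members were described, with values in every sample for called members and the 2 smallest p-values of a role. From each other list, the 4 called genes with the smallest p-values in each direction were named, and other named genes, among them GDF15, were chosen after their values were seen. Some genes of these lists are not reported here.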

Additional observations from a re-analysis of the deposited data

How the results depend on the processing

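The counts of p53 target genes called moved by less than 1.5 times under the alternatives run. Higher members numbered 7 to 9 and lower members 6 to 9 across settings on all samples (9 higher and 7 lower with scaling by total counts, 7 and 6 by DESeq2, 7 and 9 with the strict filter). Leaving out 1 sample gave 6 to 8 higher and 6 to 10 lower. With the replicate block 7 were higher and 8 lower, and no member changed its call. Same-numbered samples did not deviate together (correlations of -0.03, 0.01 and -0.02 over all tested genes). These values gave no sign of pairing by number, but deviations from means of 3 samples cannot exclude a shared batch. Of 450 single-gene values under an alternative, 400 kept their direction and their side of the threshold, 15 lost and 12 gained a call, and 23 changed sign. Of the called members only DDB2 changed sign, to 0.0277 with the median of neighbouring genes removed. The others that changed sign were not called with the reported settings. With that median removed MDM2 was at 0.0270, CCNG1 at -0.0089, CDKN1A at 0.0419, PLK3 at -0.0328, RPS27L at -0.0132 and POLH at 0.0576. With scaling by total counts MDM2 was at 0.0104, CDKN1A at 0.0150, CYFIP2 at 0.0062 and POLH at 0.0063. Without 1 sample MDM2 ranged from -0.0324 to 0.0177, CCNG1 from -0.0183 to 0.0312, CDKN1A from -0.0306 to 0.0112, PLK3 from -0.0422 to 0.12, BAX from -0.01 to 0.0448, TRIAP1 from -0.0125 to 0.0766 and POLH from -0.11 to 0.0682. The causes of these changes were not tested. MDM4, PLK3 and TIGAR, with the fewest counts of the tested members, also had the widest intervals along with POLH and SUSD6.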
